A study of Rattus norvegicus with 3 samples.

Results

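The genes described here are 10 genes of the vitreous and its collagen network, Col2a1, Col11a1, Col5a2, Col9a1, Col9a2, Col9a3, Col18a1, Vcan, Fbn2 and Optc, chosen by symbol from the 18425 genes measured in the neonatal rat retina. All 10 were present, with the gene identifiers 25412, 25654, 85250, 305104, 362584, 362285, 85251, 114122, 689008 and 304802 in that order, and all 10 had whole-number read counts in every library. Retinas of wild-type Sprague Dawley rats were taken at postnatal day 4 (P4), after an intravitreal injection of 1 µl at P1, and each of the 3 conditions was represented by 1 library. The buffer library came from eyes injected with citrate buffer (pH 4.5), the saline library from eyes injected with saline, and the STZ library from eyes that received 10 µg of streptozotocin (STZ), a DNA-alkylating compound made up in citrate buffer. The number of retinas or animals behind a library was not given in the sources used here. Since there was 1 library per condition, no p-value could be computed, the spread between animals is unknown, and every difference below compares libraries and has no replicate check.

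The vitreous is a gel of thin collagen fibrils that hold apart a network of hyaluronan. Its fibrils are built mainly of type II collagen (Col2a1), are nucleated by the minor fibrillar collagens of types XI and V (Col11a1, Col5a2), and carry on their surface type IX collagen, a heterotrimer of the chains encoded by Col9a1, Col9a2 and Col9a3, together with opticin, a small leucine-rich repeat protein (Optc). During development much of this material is secreted by the neural retina and by the non-pigmented ciliary epithelium at its edge, and opticin is known as a product of the latter. Type XVIII collagen (Col18a1) lies in the inner limiting membrane and in vessel walls, versican (Vcan) is the large proteoglycan that binds hyaluronan, and fibrillin-2 (Fbn2) builds the microfibrils of developing tissues.

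The upstream sequences of Col9a1, Col9a2 and Col18a1 are shown because these are the members with a sequence at hand whose FPKM-based fold exceeded 1.54 in saline against buffer. RefSeq windows on the assembly GRCr8 were matched by gene identifier for 7 of the 10 members, all but Col2a1, Col9a3 and Optc. The 250 bases before the annotated start are given 5′ to 3′ in the direction of the gene, with CpG dinucleotides in capitals.
Col9a1, chr9:34081114-34081363, plus strand: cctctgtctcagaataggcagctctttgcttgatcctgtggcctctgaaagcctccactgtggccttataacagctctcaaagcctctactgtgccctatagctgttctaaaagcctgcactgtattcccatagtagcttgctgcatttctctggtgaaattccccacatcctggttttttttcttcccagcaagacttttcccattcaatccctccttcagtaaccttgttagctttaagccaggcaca
Col9a2, chr5:139892548-139892797, plus strand: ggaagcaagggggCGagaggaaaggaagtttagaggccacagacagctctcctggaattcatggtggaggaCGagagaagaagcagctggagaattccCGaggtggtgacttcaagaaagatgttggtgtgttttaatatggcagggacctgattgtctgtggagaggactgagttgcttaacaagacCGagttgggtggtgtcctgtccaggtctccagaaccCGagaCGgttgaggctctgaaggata
Col18a1, chr20:11473395-11473644, plus strand: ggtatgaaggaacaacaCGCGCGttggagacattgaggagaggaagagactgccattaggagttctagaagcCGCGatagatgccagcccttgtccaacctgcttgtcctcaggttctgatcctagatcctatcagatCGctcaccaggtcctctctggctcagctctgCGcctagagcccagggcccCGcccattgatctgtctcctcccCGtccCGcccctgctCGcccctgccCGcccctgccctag

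The window of Col9a1 held 0 CpG and had a GC content of 46.8%, that of Col9a2 held 6 and 52%, and that of Col18a1 held 12 and 60.4%. Over all 33469 windows of this length the median was 5 CpG and 51.2% GC, so the 3 genes fell below, near and above the middle of the range. The letters ACAAAG and ACAAT, cores of the motif bound by SOX proteins, and TAATCC, the core bound by OTX2 and CRX, were searched on both strands. ACAAT was found 1 time and overlapped no other match, in the Col9a2 window at position -98 relative to the start, and was present in 30% of all windows. ACAAAG, held by 16.3% of all windows, and TAATCC, held by 6.34%, were in none of the 8 member windows. A match describes letters in the sequence and not a bound site.

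In the buffer library the members ranged from 28.4 FPKM for Col2a1 to 1.19 FPKM for Col5a2. FPKM counts fragments per length of transcript and per library total, and so allows levels of different genes to be compared. Col2a1 was followed by Col9a3 (22.3 FPKM), Col9a1 (14.4), Col18a1 (13.7), Col9a2 (10.9), Fbn2 (7.19), Col11a1 (5.07), Vcan (4.18) and Optc (2.26). The order differed between libraries. Col9a1 ranked 1 in saline with 34.6 FPKM and Col9a3 ranked 1 in STZ with 21.4 FPKM, whereas Col5a2 and Optc shared the last places in STZ with 1.05 and 0.89 FPKM. Of neighbours in the buffer order, only Fbn2 and Col11a1 had ranges over the 3 libraries that did not overlap (7.19 to 10.7 and 4.12 to 6.29 FPKM). Summed over the 10 genes, the level was 110 FPKM in buffer, 198 in saline and 95.8 in STZ, and the members took 0.0483%, 0.0762% and 0.0438% of all reads.

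**Figure D1:**
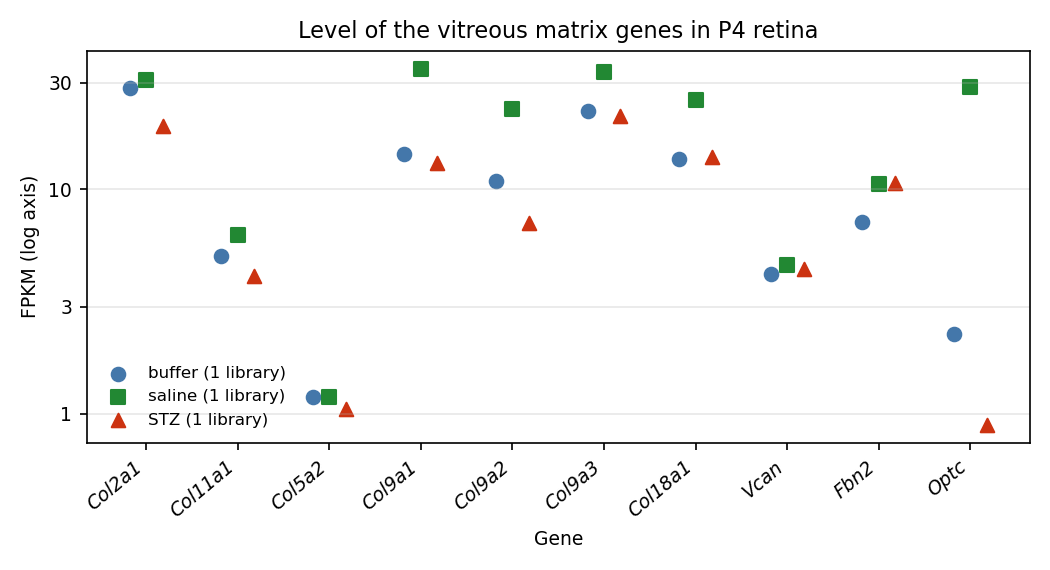
FPKM (log axis) of the 10 vitreous matrix genes in the buffer, saline and STZ libraries, with 1 point per library. The saline library stands highest for Optc (28.8 FPKM against 2.26 and 0.89) and for the 3 type IX chains, while Col5a2 and Vcan lie close together in all libraries.

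The study's fold change, (FPKM + 1)/(FPKM + 1) with limits of 1.54 and 0.65, was used to compare libraries. It is accompanied by the count ratio, in which reads of a gene are divided by all reads of the library, with a 95% counting interval. The interval covers counting error only, and reads lacking molecular identifiers need not be separate molecules. The libraries held 21977846 to 22031241 reads. The first question was what STZ changed relative to its vehicle. Col2a1, Col11a1, Col9a1 and Col9a2 had counting intervals below 1 in STZ against buffer without passing the limit, that of Fbn2 lay above 1, and Optc was the 1 member past a limit.

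Col2a1, the main fibril collagen, was measured at 28.4 FPKM (3074 reads) in buffer, 30.8 FPKM (3328 reads) in saline and 19.2 FPKM (2082 reads) in STZ. STZ was the low library and the controls lay close to each other. Its fold was 0.688 against buffer, short of 0.65, and 0.637 against saline, below it, and the count ratios were 0.676 (95% counting interval 0.639 to 0.715) and 0.624 (0.591 to 0.659). Between the controls the count ratio was 1.08 (1.03 to 1.14).

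Col11a1, the chain that sets fibril thickness, showed the same order of libraries, with 811, 1015 and 666 reads. Its fold was 0.843 against buffer and 0.702 against saline, neither past the limit, and both counting intervals lay below 1 (0.739 to 0.909 and 0.593 to 0.722). Col5a2, its partner from type V collagen, had the lowest FPKM of all members in both controls. The buffer, saline and STZ libraries held 153, 152 and 135 of its reads. Its count ratio of STZ to buffer was 0.881, and a difference within the interval of 0.694 to 1.12 was not detectable at this depth.

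The chains of type IX collagen did not move alike. Col9a2 had 668 reads in buffer, 1386 in saline and 437 in STZ, with a fold of 0.677 against buffer and a count ratio of 0.653 (0.578 to 0.738). Col9a1 had 1131, 2726 and 1032 reads, with a fold of 0.917 and a count ratio of 0.911 (0.836 to 0.992). Col9a3 had 1182, 1763 and 1132 reads, with a fold of 0.958 and an interval that included 1 (0.88 to 1.04). STZ was thus the lowest library for each chain, while the distance from buffer was largest for Col9a2, whose interval did not overlap those of the other chains. As shares of the summed FPKM of the chains, Col9a2 made up 23% in buffer, 25.3% in saline and 17.1% in STZ. Col9a3 made up 46.9%, 36.7% and 51.4%. The highest chain exceeded the lowest 2.04-fold in buffer, 1.51-fold in saline and 3.02-fold in STZ, on the FPKM scale.

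Optc, which encodes opticin, had the fewest reads of the members in buffer and STZ, 82 and 43, and 913 in saline. The level was 2.26, 28.8 and 0.89 FPKM, so saline stood far above both other libraries. The fold of STZ against buffer was 0.58, with a count ratio of 0.523 (0.353 to 0.766). The length that FPKM and reads imply for Optc was not constant, at 1.65 kb in buffer, 1.44 kb in saline and 2.19 kb in STZ. With 1 length per gene the fold against buffer was 0.676, short of the limit, whereas with CPM, which uses no length, it was 0.624, past it.

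Col18a1 had 1434 reads in buffer, 2628 in saline and 1464 in STZ, so saline was its high library. The count ratio of STZ to buffer was 1.02, and its interval of 0.947 to 1.1 included 1. Vcan had 746, 891 and 674 reads but 4.18, 4.59 and 4.44 FPKM. The 2 scales thus pointed in opposite directions for STZ against buffer, with a fold of 1.05 and a count ratio of 0.902 (0.811 to 1.00), and the implied length was 8.11 kb in buffer, 8.83 kb in saline and 6.89 kb in STZ. Versican transcripts are known to be spliced to very different lengths, and whether the isoforms differed here was not tested. Fbn2 had 1333, 1951 and 1984 reads and was the 1 member with a counting interval above 1 in STZ against buffer. Its fold was 1.43, short of the limit, and its count ratio 1.49 (1.39 to 1.59). Buffer was the low library for Fbn2, since saline and STZ lay within counting error of each other (ratio 1.01, 0.953 to 1.08).

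By the limits, 1 of the 10 members was lower in STZ than in buffer and 0 were higher, where 1.04% of all 18425 genes were lower and 2.25% were higher. The counting interval lay below 1 for 5 members, Col2a1, Col11a1, Col9a1, Col9a2 and Optc, and above 1 for Fbn2 (1 member), against 15.8% and 22.2% of the 18027 genes with reads. The median log2 fold of the members was -0.11, and that of the 14885 genes with a mean of at least 10 reads was 0.028. Without a replicate, these numbers cannot tell STZ from a difference between any pair of libraries.

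**Figure D2:**
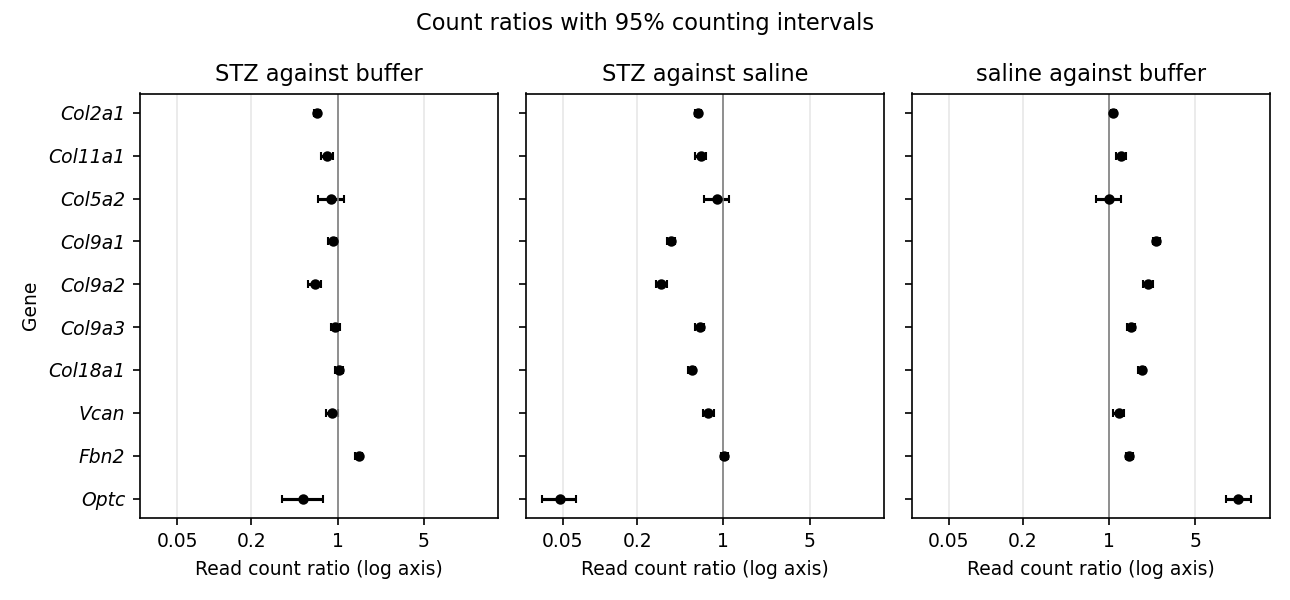
Ratio of the share of reads (log axis) for each gene in the 3 comparisons, with the exact 95% counting interval as the bar and 1 as the grey line. Optc lies at 0.523, 0.047 and 11.1, and the type IX chains lie to the left of 1 against saline and to the right of 1 in saline against buffer.

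The next comparison asked how far the choice of control mattered. Against saline, 5 of the 10 members were lower in STZ, Optc, Col9a2, Col9a1, Col18a1 and Col2a1, and 0 were higher, where 1.75% and 2.04% of all genes were past the limits. Optc had a fold of 0.0635 and a count ratio of 0.047 (0.0338 to 0.0638). Col9a2 had a fold of 0.337, Col9a1 of 0.395 and Col18a1 of 0.572. Col2a1, at 0.637, was just past the limit, and Col9a3, at 0.65 after rounding, just short of it. The counting interval lay below 1 for 8 members and above 1 for 0, against 19.8% and 22.5% of all genes with reads. The 8 included Vcan, for which the scales differed again, with a fold of 0.973 and a count ratio of 0.755 (0.682 to 0.835). The members had a median log2 fold of -0.64, beside 0.013 over all genes.

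The control libraries also differed from each other in some members. In saline against buffer, 4 of the 10 were higher, Optc, Col9a1, Col9a2 and Col18a1, and 0 were lower, where 1.00% of all genes were higher and 0.429% were lower. Optc had a fold of 9.13 and a count ratio of 11.1 (8.88 to 14.1). Col9a1 had a fold of 2.32 and a count ratio of 2.41 (2.25 to 2.59), Col9a2 a fold of 2.01, and Col18a1 a fold of 1.78. Col9a3 and Fbn2, at 1.47 and 1.41, fell short of the limit. The fibrillar collagens Col5a2, Col2a1 and Col11a1 lay nearer to 1, with folds of 0.995, 1.08 and 1.2, and the counting interval of Col5a2 included 1 (0.789 to 1.25). The interval lay above 1 for 9 members and below 1 for 0, against 13.6% and 10.0% of all genes with reads. The median log2 fold of the members was 0.53, beside 0.016 over all genes. The comparisons share libraries, so a high saline value enters both those with saline.

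Relative to Col2a1 in the same library, which removes the library total, Col9a1 stood at 0.506 in buffer, 1.13 in saline and 0.68 in STZ on the FPKM scale. Col9a2 stood at 0.385, 0.746 and 0.368, and Col9a3 at 0.787, 1.08 and 1.11. Optc stood at 0.0796, 0.935 and 0.0463, and Col11a1 at 0.179, 0.204 and 0.214. The make-up of the matrix genes in saline thus differed from that in buffer in Optc and in all 3 type IX chains. Over all libraries Col11a1 changed least of these genes relative to Col2a1, though it rose from 0.179 in buffer to 0.214 in STZ. Between buffer and STZ alone, Col9a2 changed less. Col9a1, Col9a3 and Col11a1 had fewer reads in STZ than in buffer, so their higher ratios there came with the lower Col2a1.

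Some markers of tissue at the edge of the retina were also high in saline, in lists chosen with earlier results of these data known. Of 7 ciliary and iris epithelium markers in the table (8 listed), 3 were past the upper limit in saline against buffer, Wfdc1, Gja1 and Aldh1a1, with folds of 7.25, 4.04 and 3.54, and 0 were lower. Against saline, 4 of them were lower in STZ, and against buffer 0 passed. Their summed level was 59.4 FPKM in buffer, 210 in saline and 57.8 in STZ, and no marker of the list was at 0. Aldh1a1 alone held most of each sum, with 46.63, 167.7 and 46.53 FPKM. Of the 8 pigment epithelium markers, 5 were higher in saline than in buffer and 4 lower in STZ than in saline, with summed levels of 56.5, 73 and 55.4 FPKM, led by Ttr, which was lowest in saline. Rpe65, which defines mature pigment epithelium, had 0 reads in buffer and 2 in each other library. The retina itself was plainly present, with all 9 of its transcription factors detected, 0 past a limit in any of the 3 comparisons and sums of 1141, 1125 and 1115 FPKM. The part of ciliary, iris or pigment epithelium in the Optc and type IX values was not tested, and dissection, animals and injected fluid cannot be told apart with 1 library each. Fewer cells of a type and less RNA per cell cannot be told apart in bulk RNA either.

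Markers of further cell types were low in all libraries (cartilage, periocular mesenchyme), lower in STZ, as Col2a1 and Col9a2 were (vascular, astrocyte, progenitor and cycling), or higher in STZ (macrophage, lens). The 5 cartilage markers in the table (6 listed) summed to 2.52, 4.26 and 2.19 FPKM in buffer, saline and STZ, Matn1 was at 0 in saline and STZ, and Matn3 alone was past a limit in saline against buffer, with 9, 75 and 9 reads. The 6 periocular mesenchyme markers in the table (7 listed) summed to 0.86, 1.66 and 0.56 FPKM, with Lum at 0 in buffer and Dcn at 0 in STZ. By the limits, Lum was higher in saline than in buffer, from 18 reads. Between STZ and buffer, 4 of 7 vascular markers were lower (sums 127, 135 and 86.7 FPKM in buffer, saline and STZ), led by Cldn5 with a fold of 0.294. Kdr, which passed no limit, held most of each vascular sum, with 105.92, 117.43 and 80.18 FPKM. In STZ against buffer, all 5 macrophage markers were higher (41.5, 50.4 and 124 FPKM), and 3 of 5 astrocyte markers were lower (14.4, 15.8 and 7.33 FPKM, with Aldh1l1 at 0 in buffer and STZ). Of 10 progenitor and cycling genes in the table (11 listed), 2 were lower, Dll1 and Ccnd1, with sums of 1013, 972 and 713 FPKM. The median log2 fold of STZ against buffer was -0.76 for the vascular, -0.67 for the astrocyte and -0.4 for the progenitor and cycling markers, beside -0.54 for Col2a1 and -0.56 for Col9a2. Lens genes were higher for 14 of 19, with sums of 22.8, 63.6 and 377 FPKM and with Cryba2 and Crybb2 at 0 in buffer. In saline against buffer, 12 of the 19 lens genes were higher as well, led by Cryab with a fold of 3.79. The part of these cell types in the lower Col2a1 and Col9a2 of the STZ library was not tested.

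**Figure D3:**
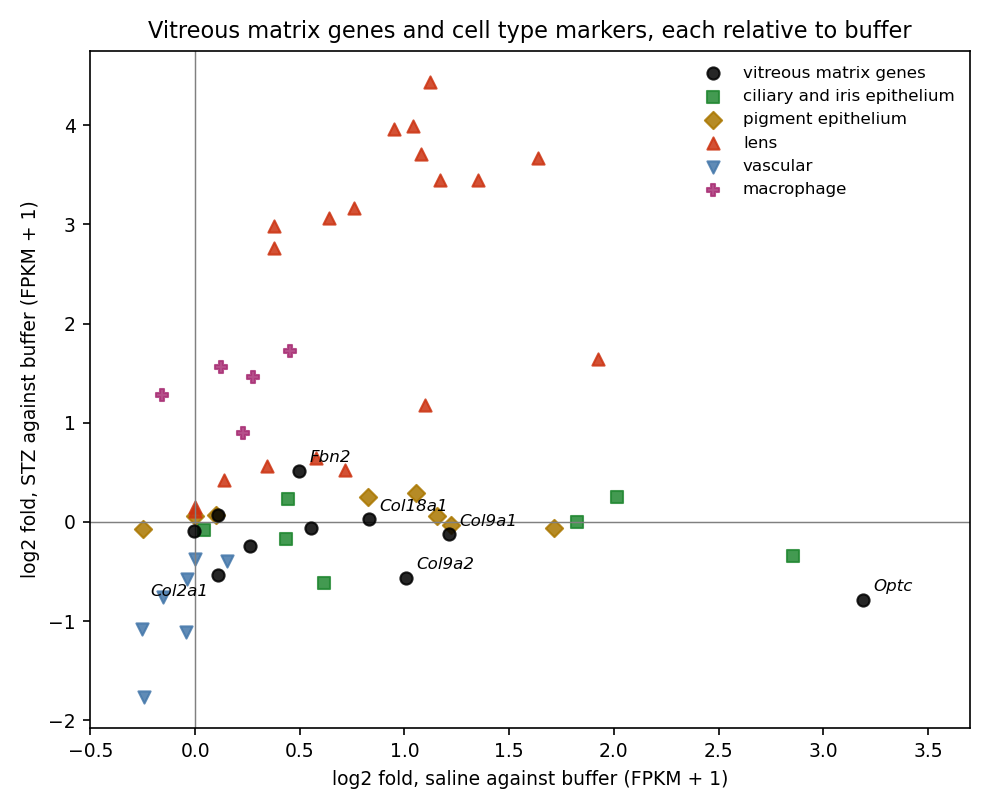
Each gene by its log2 fold in saline against buffer (horizontal) and STZ against buffer (vertical), both on FPKM + 1, for the 10 vitreous matrix genes and 5 marker lists. Both axes share the buffer library. Optc lies at the right with Wfdc1, Gja1, Aldh1a1 and the lens gene Cryab. Lens and macrophage markers lie above 0 on the vertical axis and vascular markers below it.

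The wider matrix was examined through 8 lists with 114 genes in the table, and medians are over their genes with a mean of at least 10 reads. Of 8 other fibril-forming collagens, 2 were higher (Col5a3 and Col1a2) and 1 lower (Col3a1) in STZ against buffer, with a median log2 fold of 0.29. Col5a3, a type V chain, had 314, 455 and 902 reads, highest in STZ, with folds of 2.34 and 1.77 against the controls. Col1a2 was listed at 0 in buffer and had 59 and 104 estimated reads in saline and STZ, fractional values for which no fold is given. Col3a1 had 83, 73 and 15 reads and a fold of 0.628. Col5a1, the most abundant of them, was level at 11.1, 11.1 and 11.2 FPKM. The fibril collagens outside the vitreous set thus included Col5a3, which stood higher in STZ than in both controls, opposite to Col2a1.

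Of 18 other collagens outside the basement membrane in the table (19 listed), 0 were higher and 1 lower in STZ against buffer (median -0.01). The lower gene was Col15a1, a relative of Col18a1, with 163, 65 and 64 estimated reads, and it was lower in saline as well. Against saline, Col6a2 and Col23a1 were lower, with folds of 0.51 and 0.534. The most abundant, Col16a1, lay between 20.7 and 21.9 FPKM. Of 28 collagen processing genes in the table (29 listed), 0 passed a limit in STZ against either control, with medians of 0.06 and 0.07. P4ha1, a subunit of the enzyme that hydroxylates collagen prolines, was lower in saline than in buffer, with a fold of 0.647 and levels of 75.6 and 48.6 FPKM, while STZ had 65.1. P4ha1 was the 1 gene of this list past a limit in any comparison.

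Of 17 genes of hyaluronan and its binding proteins, 0 passed a limit in any comparison (median log2 fold 0.04 and -0.01 in STZ against buffer and saline, and 0.06 between the controls). The most abundant, Impg2 of the photoreceptor matrix, had 78.1, 75.3 and 109 FPKM. Of 9 small leucine-rich proteoglycans in the table (12 listed), the family of opticin, Fmod and Bgn passed limits in opposite ways. Fmod, which encodes the fibril-binding fibromodulin, had 26 reads in buffer, 131 in saline and 24 in STZ, with a fold of 2.22 in saline against buffer. Bgn, which encodes biglycan, had its high library in STZ, with 202 reads beside 77 and 74, a fold of 2 relative to buffer. Fmod thus shared the high saline value of Optc, and Bgn did not. Between STZ and buffer, the count ratio of Fmod was 0.921, with an interval that included 1 (0.507 to 1.67). Lum, with 0, 18 and 3 reads, was also past the upper limit in saline against buffer. The list had medians of -0.04, -0.25 and 0.16, over only 4 genes with a mean of at least 10 reads.

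The 17 fibrillin microfibril and elastic fiber genes included, in Ltbp1 with a fold of 3.32, a large difference between the controls. In saline against buffer 3 were higher and 0 lower, and in STZ against saline 6 were lower and 0 higher, with medians of 0.18 and -0.48 (-0.55 where a gene with 3 or fewer reads in 1 library was set to 3 there). Ltbp1, which binds latent TGF-beta to microfibrils, had 80 reads in buffer, 573 in saline and 56 in STZ. Ltbp2, a component of the ciliary zonule, had 10, 159 and 8 reads. Fbn1, which encodes the main fibrillin of the zonule, had 349, 833 and 285 reads. The saline library was thus high for these genes of the zonule, and Fbn1 did not share the high STZ value of Fbn2. Fbln2 was lower in STZ than in both controls, with 891, 1226 and 458 reads and folds of 0.557 and 0.412. The most abundant, Mfap2, had 45.5, 51.8 and 36.6 FPKM. In STZ against buffer 1 of the 17 was lower, and the median was -0.19.

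Of 12 matrix proteases and inhibitors, 2 were higher in STZ than in buffer and 0 lower (median 0.01). Mmp2, a gelatinase, had 243, 368 and 698 reads, with folds of 2.49 against buffer and 1.76 against saline. Timp1, which encodes an inhibitor of such enzymes, had 38, 63 and 81 reads and a fold of 1.83 against buffer. The most abundant, Mmp14, was at 61.2, 61.9 and 49.3 FPKM. Medians against saline and between the controls were -0.17 and 0.22. Of the 5 Sox genes whose proteins include the activators of the type II collagen genes in cartilage, 2 were lower in STZ against saline, Sox8 and Sox9, with folds of 0.634 and 0.64, and 0 passed against buffer. Against buffer, Sox9 was just short of the limit, with a fold of 0.653. Sox9 had 778, 795 and 480 reads, an order of libraries like that of Col2a1. The list had medians of -0.07, -0.19 and 0.09.

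**Figure D4:**
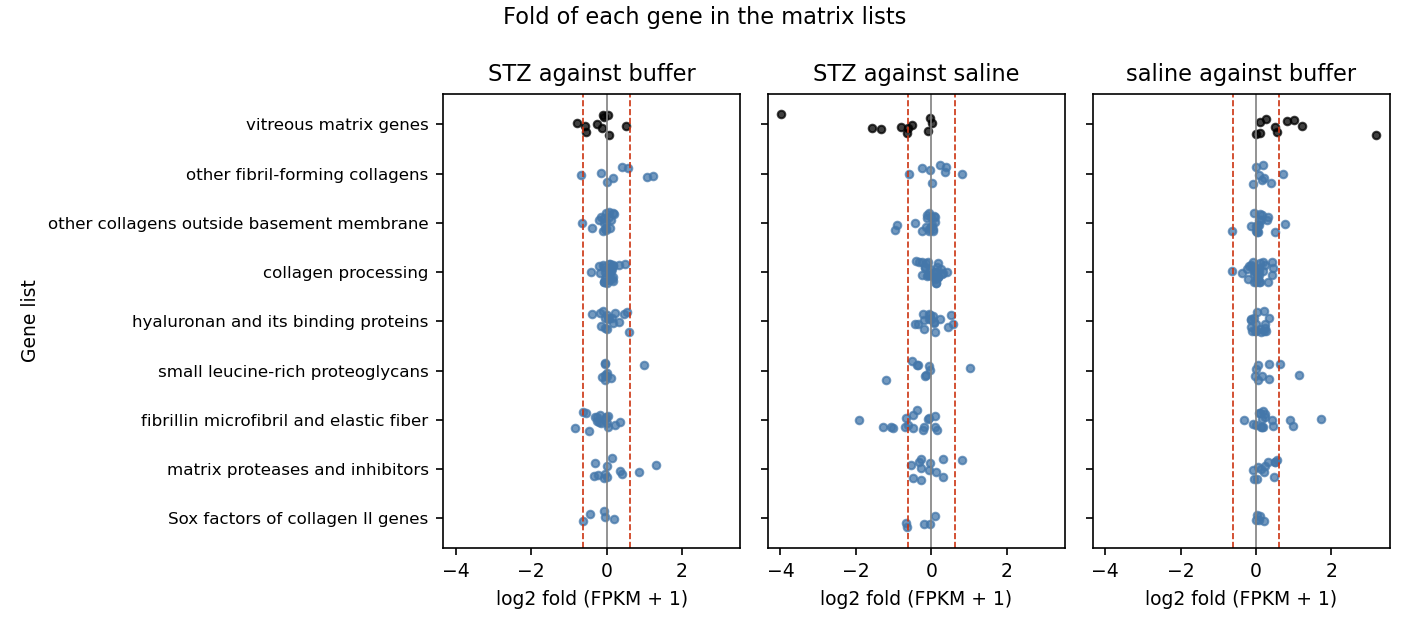
Log2 fold on FPKM + 1 of each gene (points, spread vertically for visibility) in the 10 vitreous matrix genes and 8 matrix lists, with the limits of 1.54 and 0.65 as dashed lines. Optc lies farthest from 0 against saline and between the controls, and 0 of 17 hyaluronan genes lie beyond a dashed line in any panel.

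The genes whose reads followed a member most closely were sought in the 11783 genes that averaged 100 reads or more, by Euclidean distance between log2 count ratios of saline and STZ to buffer, over 3 libraries. For Col2a1 they were Igf2, Lonrf3, Esco2, Ncapg2 and Ninl, at distances of 0.01 to 0.024. For this gene 65 of the 11783 candidates lay within 0.1. For Optc they were Syt15 and Ltbp1, at 0.495 and 0.761, then Gja1, Pmel and Sned1, at 1.68 to 1.86, and 0 genes lay within 0.1. Syt15 had 54 reads in buffer, 459 in saline and 35 in STZ. Wfdc1, with 20, 258 and 12 reads, averaged fewer than 100 and was not a candidate. Its count ratios to buffer were 12.9 in saline and 0.599 in STZ, beside 11.1 and 0.523 for Optc. With 3 libraries such a likeness describes these libraries and nothing more.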

How the data were processed

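Retinal RNA from 3 conditions, with 1 library each, was grouped by the treatment given in the labels. Per the methods, the authors removed low-quality sequence, aligned what remained by TopHat2 (up to 2 mismatches), discarded reads with several locations and calculated FPKM with an R script. Per the labels, the build was rn6. The annotation, the counter and its strand setting are not given in the sources used here. The authors deposited FPKM, TPM and estimated counts per gene. Of the estimated counts, 12.9% to 13.2% per library were fractional, and they were rounded before intervals were computed.

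Folds were (FPKM + 1)/(FPKM + 1) with limits of 1.54 and 0.65, as in the methods. Count ratios had exact Clopper-Pearson 95% intervals, which cover counting error only. No p-value was computed. Of 18425 identifiers, 17120 matched RefSeq GRCr8, which was used for upstream windows only. The members, the gene lists and the naming rule were chosen with earlier results of these data known. That rule named all members, the most abundant gene of a list, at most 4 genes of a list past a limit in a comparison (mean of at least 10 reads), and the 5 genes nearest to Col2a1 and to Optc. Lum was named after its values were seen. A gene of the marker lists is not reported here. Alternatives were a pseudocount of 0.1, TPM, CPM, the TMM factors of edgeR 4.0.16 (0.985 to 1.01) or the size factors of DESeq2 1.42.0 (R 4.3.3), limits of 2 and 0.5, a minimum mean of 10 reads, intervals that exclude 1, and the mean of the controls. FPKM with 1 length per gene and whole-number genes only were added after seeing the data. No count model was fitted. Calculations were tested on simulated data and run in Python 3.11.15 with pandas 2.3.3, numpy 2.4.6, scipy 1.17.1 and matplotlib 3.10.9.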

Additional observations from a re-analysis of the deposited data

How the results depend on the processing

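Over the single members, 201 of 210 alternative folds lay within the counting error of the reported fold, and no fold past a limit reversed. The 9 outside it were all of Vcan or Optc. Every alternative used the same reads, so this closeness is no check on differences between libraries. Against buffer, the number of members past a limit was 1 and became 0 with 1 length per gene, 0 with limits of 2 and 0.5, and 6 where the counting interval had to exclude 1. Against saline, 5 became 3 with limits of 2 and 0.5, 8 by the interval, and 6 with the pseudocount of 0.1, TPM, CPM, TMM or the DESeq2 factors. In saline against buffer, 4 became 3 with limits of 2 and 0.5 and 9 by the interval. The 1 member lower in STZ than in both controls became 3 against their mean. Of the 114 matrix list genes, 5 were higher and 3 lower against buffer, beside 2.25% and 1.04% of all genes. These 8 became 20 under a pseudocount of 0.1, 13 with CPM and 3 with limits of 2 and 0.5. Against saline, 3 were higher and 11 lower, beside 2.04% and 1.75%, and these 14 became 31, 25 and 6. In saline against buffer, 7 were higher and 2 lower, beside 1.00% and 0.429%. These 9 became 21 with the pseudocount and 2 with limits of 2 and 0.5. Shares of all genes under the alternatives were not computed. The pseudocount moves genes of low level by its construction, and the other causes were not tested. Scaling moved the median log2 fold of all genes by less than 0.1. No paired analysis was possible because each group holds 1 library, and for the same reason no replicate could be left out. Depth limited Col5a2 and Optc most, with 135 to 153 and 43 to 913 reads.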
